A study of Homo sapiens with 27 samples.

Results

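The genes described here are 10 members of the transforming growth factor beta (TGF-beta) pathway, taken by the gene name that the scanner files give each probe: the secreted ligands GDF15, INHBA, INHBB, INHBE, TGFB1, TGFB2 and BMP4, the inhibitory signal proteins SMAD6 and SMAD7, and the target gene ID1. Each had 1 probe on the array, so the members are 10 of 37063 gene names and 10 of the 41000 probes of each platform. RNA came from HepG2, an established line of human hepatocellular carcinoma, after 48 h with 1 of 9 polycyclic aromatic hydrocarbons, flat compounds of fused rings that form in burning. These were the small naphthalene (NP) and phenanthrene (PH), the isomers chrysene (CHR) and benzo[a]anthracene (BA), the isomers benzo[a]pyrene (BaP) and benzo[k]fluoranthene (BF), the methylated 3-methylcholanthrene (3MC), and the larger indeno[1,2,3-c,d]pyrene (IND) and dibenzo[a,h]anthracene (DBA). Every compound was measured on 3 arrays, 27 in all: Cy5 carried the RNA of exposed cells and Cy3 that of cells given DMSO, the solvent. Doses are not in the labels, nor whether the 3 arrays come from separate cultures, so p-values measure the spread between arrays, which may be technical. Since no array has the dyes swapped, any dye bias of a probe remains in its values.

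Ligands of the TGF-beta family are secreted as dimers and bind pairs of receptor kinases, which phosphorylate receptor SMADs that enter the nucleus with SMAD4. SMAD6 and SMAD7 are induced by the pathway and restrain it, and ID1 is a direct target of bone morphogenetic protein (BMP) signals. GDF15 is a distant member that many cells release under stress, through p53 or the ATF4 branch of the integrated stress response, and its receptor GFRAL lies in the hindbrain. In the liver, INHBE encodes the activin E subunit, a hepatocyte product, and BMP signals drive hepcidin, the hormone that limits iron uptake.

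The promoters of 4 members whose ratios are described at length are shown first. Of these, 2 carry the core of the element that the aryl hydrocarbon receptor (AHR), a sensor of many polycyclic aromatic hydrocarbons, binds. RefSeq promoters (GRCh38.p14) matched 9 of the 10 members. The 250 bases upstream of each start are given 5′ to 3′ along the gene's strand, with motif matches in capitals.
GDF15, chr19:18385908-18386157, plus strand: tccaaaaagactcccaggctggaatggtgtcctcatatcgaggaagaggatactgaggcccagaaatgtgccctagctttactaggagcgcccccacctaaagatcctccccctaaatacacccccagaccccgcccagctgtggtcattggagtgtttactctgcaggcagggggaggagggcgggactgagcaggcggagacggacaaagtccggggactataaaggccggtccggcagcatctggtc
TGFB1, chr19:41353923-41354172, minus strand: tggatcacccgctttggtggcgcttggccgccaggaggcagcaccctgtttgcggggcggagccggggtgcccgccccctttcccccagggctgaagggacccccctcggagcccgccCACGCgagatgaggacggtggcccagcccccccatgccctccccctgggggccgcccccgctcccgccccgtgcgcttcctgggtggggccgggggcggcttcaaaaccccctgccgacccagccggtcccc
INHBB, chr2:120345886-120346135, plus strand: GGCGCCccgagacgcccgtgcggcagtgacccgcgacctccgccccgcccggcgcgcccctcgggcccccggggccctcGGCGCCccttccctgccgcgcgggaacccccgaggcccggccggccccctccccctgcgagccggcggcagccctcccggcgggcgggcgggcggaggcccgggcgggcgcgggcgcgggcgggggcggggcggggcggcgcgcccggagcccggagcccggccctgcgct
ID1, chr20:31605039-31605288, plus strand: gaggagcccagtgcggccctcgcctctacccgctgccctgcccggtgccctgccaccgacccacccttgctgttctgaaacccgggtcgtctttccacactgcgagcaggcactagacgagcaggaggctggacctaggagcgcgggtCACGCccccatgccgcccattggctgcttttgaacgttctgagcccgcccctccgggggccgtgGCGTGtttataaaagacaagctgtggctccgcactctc
The motifs were searched on both strands: GCGTG (the AHR core), CAGACA (the SMAD box), GGCGCC (a site of SMAD1), TGACGTCA (the cAMP response element), TGANTCA (AP-1) and TGATGNAA (a C/EBP-ATF site), none of which contains another. The GDF15 window held none of these letters. TGFB1 held the AHR core once, beginning 132 bases upstream, and ID1 held it at 102 and 38 bases upstream. INHBB held the SMAD1 letters at 250 and 171 bases upstream. Of the members not shown, BMP4 and SMAD7, which have several starts, held the AHR core too. It began at 196 and 107 bases upstream of a BMP4 start and at 124 and 41 upstream of a SMAD7 start. Other BMP4 windows held the SMAD1 letters at 232 and the SMAD box at 47, and TGFB2 held the SMAD box at 53. Over all 27305 promoters of that length, 31.9% held GCGTG and 16.1% held GGCGCC, so such matches are common and only describe the letters.

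The cells' identity and the arrays were checked before the results. All 8 hepatocyte markers (ALB, AFP, APOA1, APOB, TTR, SERPINA1, TF and FGB) stood above background on all 24 arrays of the shared platform and on the 3 IND arrays, which have a platform of their own. The 3 leukocyte, 3 endothelial and 3 fibroblast markers also passed this background rule on 13 to 24 of the 24 arrays, so it does not separate cell types. Median Cy5 spot signals were 70 to 163 scanner units with DBA, 3MC and NP, against 342 to 1535 with the other compounds, and the constant of 50 added to every signal draws ratios of dim probes toward 0 most in those 3. BA array 1 stood apart: over all probes its ratios correlated at 0.18 and 0.13 with BA arrays 2 and 3, so BA results are given with and without it. In bulk RNA, fewer cells of a kind and less RNA per cell cannot be told apart.

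GDF15 and TGFB1 were the members that rose with the most compounds: GDF15 with 9 of 9 and TGFB1 with 6 of 9. BMP4 rose with 4 compounds and INHBB with 4 of the 8 in which it was tested, while SMAD7 and ID1 passed with PH. INHBE fell with 3 compounds and SMAD6 with 2. INHBA and TGFB2 passed the test with none. A member passed at an adjusted p under 0.05 (limma, Benjamini-Hochberg over all tested probes) and a change of at least 1.5-fold.

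Counted by compound, PH had the most members past the test, 6 of 10, all higher, where 15.9% of all probes passed and 8.16% were higher. With BaP 5 of 10 passed, beside 21.3% of probes, 4 of them higher (11.1% of probes) and 1 lower (10.2%). With BF 4 of 10 passed, beside 33.2%, 2 of them higher (13.7%) and 2 lower (19.5%). With CHR 3 of 10 passed, beside 20.9%, 1 of them higher (9.33%) and 2 lower (11.6%). The remaining compounds moved members upward only. There 3 of 10 passed with 3MC, beside 9.74% of probes changed and 2.46% higher, and 3 of the 8 tested with IND, beside 21.5% changed and 9.04% higher. For NP the count was 2 of 10, beside 16.5% changed and 4.74% higher, for BA 2 of 10, beside 4.27% changed and 1.69% higher, and for DBA 2 of 10, beside 7.64% changed and 2.15% higher. The members' median log2 ratio ran between -0.15 with CHR and 0.66 with PH, where the median of all probes lay within 0.01 of 0 for every compound. Normalization centres the ratios of each array near 0, so the median of all probes is set by the processing. Shares of changed members near those of all probes, as with NP, BF and CHR, are no result about the members. The 2 members with NP were both higher, however, and the counts with NP and BF depended on the processing, as given below.

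**Figure D1:**
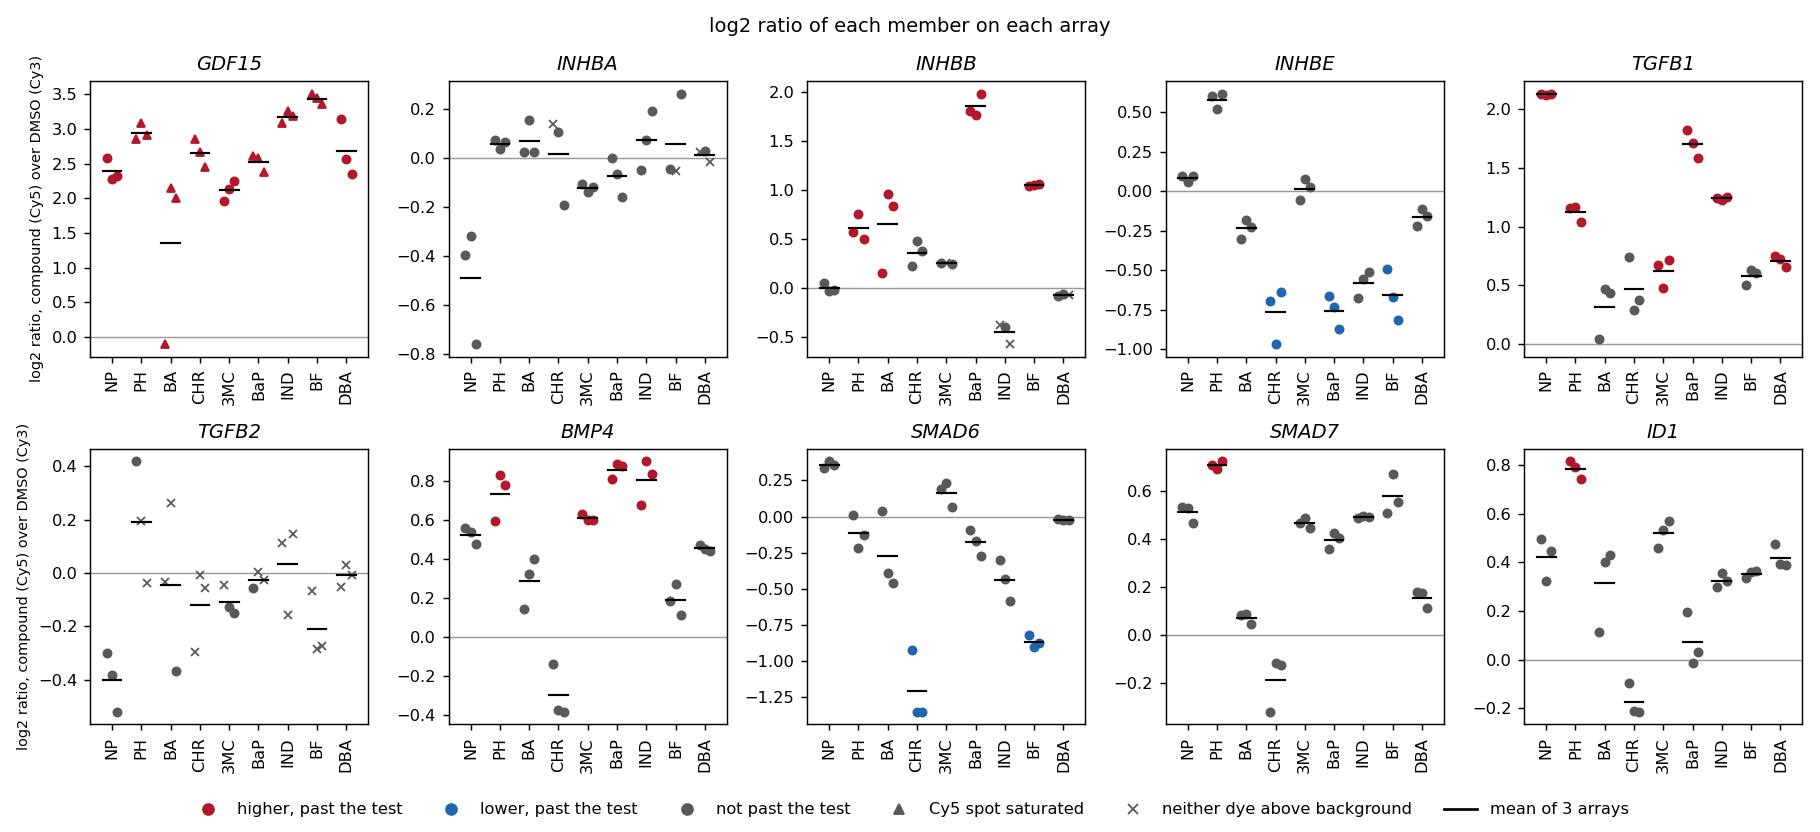
Each panel plots 1 member, with the compound on the horizontal axis and the log2 ratio of compound (Cy5) over DMSO (Cy3) on the vertical axis, whose range differs between panels. Points are the 3 arrays of a compound, bars their mean, red and blue mark compounds past the test as higher or lower, triangles mark saturated Cy5 spots and crosses spots with neither dye above background. GDF15 lies above 0 on 26 of 27 arrays and TGFB1 on 27 of 27, INHBE and SMAD6 reach below -0.5 with CHR and BF, and BA array 1 lies apart from the other BA arrays for GDF15, INHBB and TGFB1.

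GDF15 (chr19:18386158-18389176), the stress-released ligand, was higher with every compound. Its Cy5 spot was saturated, with over 50% of its pixels at the scanner's limit, on all 3 arrays of PH, BA, CHR, BaP, IND and BF, so those changes are lower bounds. Only NP, 3MC and DBA were measured without saturation. The Cy5 signals with NP were 19313, 17159 and 16567 scanner units, against 4981, 5418 and 5462 in DMSO on the same arrays, and the log2 ratios after normalization were 2.58, 2.28 and 2.32 (mean 2.39 ± 0.16, SD, n = 3). With 3MC the log2 ratios were 1.96, 2.13 and 2.25 (mean 2.11 ± 0.14), and with DBA 3.14, 2.57 and 2.35 (mean 2.69 ± 0.41). Each array was far above DMSO. NP and DBA overlapped, while the highest 3MC array lay below every array of both. The changes were 5.25-fold with NP (adjusted p = 3.06e-08), 4.33-fold with 3MC (adjusted p = 3.25e-07) and 6.44-fold with DBA (adjusted p = 1.12e-08, limma). The DBA value was higher with median centring in place of loess, at a log2 ratio of 3.34, and in the authors' values, at 3.46.

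For the saturated compounds GDF15 was at least 10.8-fold higher with BF, 9.02-fold with IND, 7.70-fold with PH, 6.31-fold with CHR and 5.75-fold with BaP. With median centring the log2 ratio of BF was 4.17 in place of 3.44. Because these are bounds, they give no order among the compounds. The fit's adjusted p-values were 3.60e-11 for BF, 5.18e-08 for IND, 1.35e-09 for PH, 5.28e-09 for CHR and 1.03e-08 for BaP. BA is the exception in its spread: its log2 ratios were -0.10, 2.15 and 2.01. On BA array 1 the DMSO signal was 46282 scanner units, against 12339 and 13021 on the other BA arrays, while the Cy5 signals were alike at 65220, 65181 and 64929. GDF15 was at least 2.55-fold higher with BA over all 3 arrays (adjusted p = 0.000188), and at least 4.22-fold without array 1 (adjusted p = 5.20e-11). Fitted on the BA arrays alone, the test was not passed. All 8 compounds share 1 estimate of the spread: the standard error of GDF15 for a compound of 3 arrays was 0.25, and without BA array 1 it was 0.10.

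**Figure D2:**
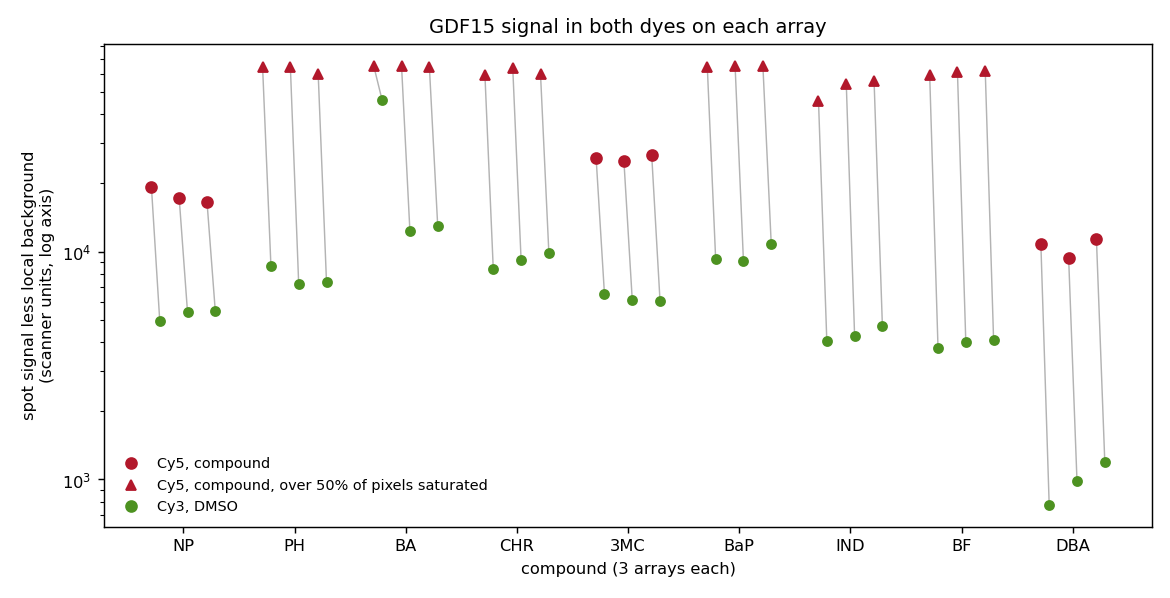
The vertical log axis gives the GDF15 spot signal less its local background in scanner units, with compound RNA (Cy5, red) and DMSO RNA (Cy3, green) of 1 array joined by a line, and compounds along the horizontal axis. Triangles are saturated Cy5 spots. Cy5 reaches the scanner's ceiling with 6 compounds but not with NP, 3MC or DBA, and on BA array 1 the DMSO signal of 46282 units stands far above the other DMSO signals.

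TGFB1 (chr19:41330323-41353922) encodes the founding ligand of the family, a regulator of growth arrest and fibrosis in liver. It was highest over DMSO with NP and then BaP. With NP its log2 ratios were 2.13, 2.12 and 2.14, a 4.38-fold rise (SD 0.01, n = 3, adjusted p = 1.64e-15). With BaP they were 1.82, 1.71 and 1.59, a 3.26-fold rise (mean 1.71 ± 0.12, adjusted p = 3.47e-14). Arrays of each compound lay close together, and NP did not overlap BaP. The ratios were 1.25, 1.22 and 1.26 with IND (mean 1.24 ± 0.02) and 1.16, 1.17 and 1.04 with PH (mean 1.12 ± 0.07). Smaller rises passed with DBA, at 0.75, 0.72 and 0.66 (mean 0.71 ± 0.05), and with 3MC, at 0.67, 0.48 and 0.72 (mean 0.62 ± 0.13, which no longer passed without 3MC array 3, at 0.58). The means were 0.58 with BF, 0.47 with CHR and 0.32 with BA (0.45 without array 1), under the fold threshold. BF lay just under it and passed with several alternatives. Among these were median centring, at 0.75, plain background subtraction, at 0.66, and the authors' values, at 0.59. CHR passed with median centring, at 0.61, and in the authors' values, at 0.68. All 27 arrays lay above 0. With DBA the TGFB1 signals were 143, 118 and 109 units in Cy5 against 57, 48 and 40 in DMSO. The DMSO signals lie near the added constant of 50, which draws the DBA ratio toward 0.

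The DMSO signal of TGFB1 itself differed between compounds. Over the median spot of its array it was 0.47 to 0.71 with PH, 0.76 to 0.89 with BaP, 1.0 to 1.5 with DBA and 1.6 to 1.9 with IND. It was 1.9 to 2.5 with NP, 2.0 to 2.6 with 3MC, 3.4 to 4.7 with BF, 4.1 to 9.6 with CHR and 8.6 to 9.3 with BA. The compounds with the smallest ratios, BA and CHR, had the highest DMSO signals. The ratio has this signal in its denominator, and the part that these differences have in the ratios was not tested.

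**Figure D3:**
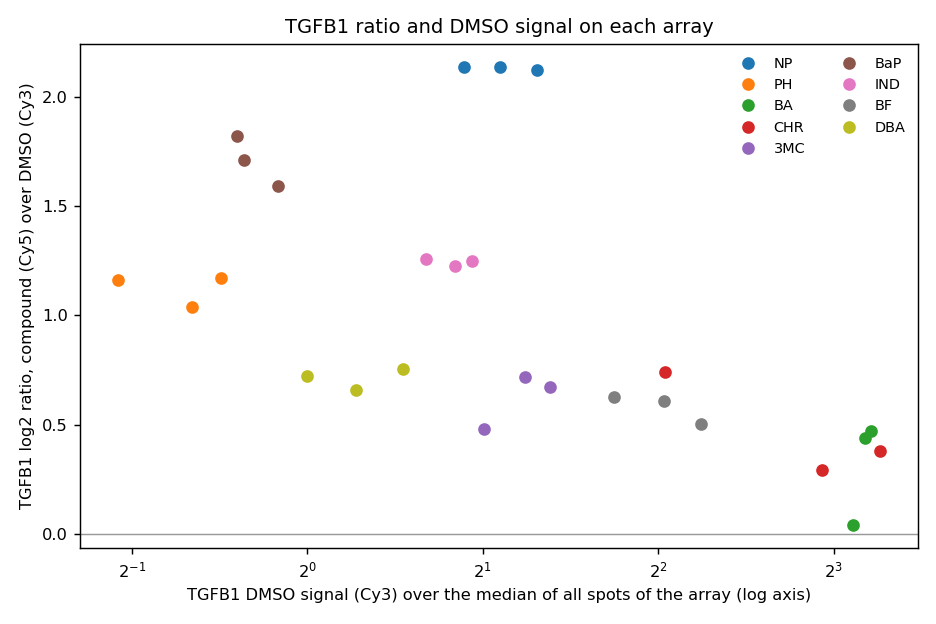
Each point is 1 array, with the TGFB1 DMSO signal over the median of all spots on the horizontal log axis, the TGFB1 log2 ratio of compound over DMSO on the vertical axis, and 1 colour per compound. BA and CHR arrays lie at 4.1 to 9.6 times the array median and ratios of at most 0.74, while NP arrays lie at 1.9 to 2.5 and ratios of 2.12 to 2.14.

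The activin subunits moved in different directions. INHBB (chr2:120346136-120351803) encodes the beta B subunit of activin B and inhibin B. With BaP its log2 ratios were 1.80, 1.76 and 1.98, a 3.60-fold rise (mean 1.85 ± 0.12, adjusted p = 1.90e-13). With BF they were 1.04, 1.05 and 1.06, a 2.07-fold rise (mean 1.05 ± 0.01, adjusted p = 1.17e-09). Both sets lay apart from each other and from all other compounds. With PH they were 0.57, 0.75 and 0.49 (mean 0.61 ± 0.13), which passed by a small margin and did not pass without PH array 2, at 0.53, or without background correction, at 0.50. With BA they were 0.15, 0.95 and 0.84 (mean 0.65 ± 0.43), and without array 1 the mean was 0.90 (adjusted p = 2.47e-10). That call was lost without BA array 2, at 0.49, and without BA array 3, at 0.55. The means were 0.36 with CHR, 0.25 with 3MC, -0.00 with NP and -0.07 with DBA. With IND the probe was not tested, since Cy5 was not well above background on any array and Cy3 on only 1.

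INHBE (chr12:57455307-57458025), the activin E subunit, went the other way. With CHR its log2 ratios were -0.70, -0.97 and -0.64 (mean -0.77 ± 0.17, adjusted p = 3.46e-10). With BaP they were -0.67, -0.73 and -0.87 (mean -0.76 ± 0.10, adjusted p = 3.52e-10), and with BF -0.49, -0.67 and -0.81 (mean -0.66 ± 0.16, adjusted p = 1.87e-09). All 9 of these arrays lay below 0, and the 3 compounds overlapped. The BF call was lost without BF array 3, at -0.58. IND gave -0.68, -0.55 and -0.51 (mean -0.58 ± 0.08) and PH 0.60, 0.52 and 0.62 (mean 0.58 ± 0.05), both just under the fold threshold. IND passed as lower with several alternatives. Among these were plain background subtraction, at -0.68, no background correction, at -0.61, and median centring, at -0.67. PH passed as higher with plain background subtraction, at 0.60, with an offset of 16, at 0.59, and without PH array 2, at 0.61. Means with NP, 3MC, DBA and BA lay between -0.24 and 0.08. Its DMSO signal over the array median was 4.43 to 5.85 with CHR and 4.85 to 6.68 with BaP, against 0.804 to 2.18 with the other 7 compounds. Hepatocyte markers passed with every compound. Of the 8, all fell with BF (median log2 ratio -1.62), 7 with IND (-1.31) and 6 with BaP (-0.83). With CHR 3 fell and 2 rose (-0.51), and with NP 4 fell and 1 rose (-0.62). With DBA 3 fell and 1 rose (0.03), and with 3MC 2 fell and 2 rose (0.24). With PH 2 fell (-0.19) and with BA 1 fell (-0.41). The part of these marker changes in the fall of INHBE was not tested.

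INHBA (chr7:41685114-41705406), the beta A subunit of activin A, was dim. Cy5 stood above background on 22 of 27 arrays and Cy3 on 21. Its compound means ran between -0.49 with NP and 0.07, and none passed. The NP arrays gave -0.40, -0.32 and -0.76, all below 0, with signals of 39, 21 and 49 units in Cy5 against 142, 87 and 250 in DMSO. With plain background subtraction, without the added constant, INHBA passed as lower with NP at -0.86. It also passed as lower there with an offset of 16, at -0.68, and in the authors' values, at -1.06.

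TGFB2 (chr1:218345336-218444619), a second TGF-beta ligand, was dim in most arrays. Cy5 stood above background on 2 of 27 arrays and Cy3 on 8. Its compound means lay between -0.40 with NP and 0.19 with PH, and none reached the fold threshold. On the NP arrays Cy5 held 17, 10 and 16 units against 74, 65 and 101 units in DMSO, where DMSO stood above background on all 3 and Cy5 on 1 (adjusted p = 0.00053). With NP it passed as lower with an offset of 16, at -0.68, and with plain background subtraction, at -1.09. With plain background subtraction it also passed as higher with PH, at 0.91. On the PH arrays Cy5 held 209, 24 and 34 units against 135, 4 and 28 units in DMSO, so array 1 alone stood above background.

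BMP4 (chr14:53949736-53956891) encodes a bone morphogenetic protein, a ligand of the SMAD1 branch. Its log2 ratios were 0.81, 0.89 and 0.88 with BaP (mean 0.86 ± 0.04, adjusted p = 9.95e-12). They were 0.68, 0.90 and 0.84 with IND (mean 0.81 ± 0.11, adjusted p = 8.98e-06), 0.59, 0.83 and 0.78 with PH (mean 0.73 ± 0.12, adjusted p = 2.12e-10) and 0.63, 0.60 and 0.60 with 3MC (mean 0.61 ± 0.02, adjusted p = 5.77e-09). These 4 sets overlapped in part and passed the test. NP at 0.52 ± 0.04, DBA at 0.45 ± 0.02, BA at 0.29 ± 0.13 and BF at 0.19 ± 0.08 did not reach the fold threshold. CHR gave -0.14, -0.38 and -0.38 (mean -0.30 ± 0.14), the 1 compound with every array below 0. With median centring in place of loess, BMP4 also passed with BF, at 0.63, and with DBA, at 0.67. With plain background subtraction it passed with DBA, at 0.59, and with NP, at 0.60, and NP passed in the authors' values, at 0.62.

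Of the inhibitory SMADs, SMAD6 (chr15:66702236-66782849), which mainly blocks BMP receptors, fell with CHR and BF. With CHR the log2 ratios were -0.92, -1.35 and -1.35, a 2.31-fold fall (mean -1.21 ± 0.25, adjusted p = 1.98e-11). With BF they were -0.82, -0.90 and -0.88, a 1.82-fold fall (mean -0.87 ± 0.04, adjusted p = 1.87e-09). Neither set overlapped any other compound. Cy5 of SMAD6 was above background on 2 of the 3 CHR arrays and on 1 of the 3 BF arrays, so the size of the fall with BF rests on dim spots. IND gave -0.30, -0.43 and -0.59 (mean -0.44 ± 0.14), BA -0.27 ± 0.27 (-0.42 without array 1), BaP -0.18 ± 0.09 and PH -0.11 ± 0.11, and none of these reached the fold threshold. NP, at 0.34, 0.38 and 0.35 (mean 0.36 ± 0.02), was above DMSO on every array but under the threshold. It passed with plain background subtraction, at 0.63, and in the authors' values, at 0.79.

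SMAD7 (chr18:48919853-48950965), which blocks TGF-beta and BMP receptors alike, rose with PH, at 0.71, 0.69 and 0.72 (mean 0.71 ± 0.02, adjusted p = 6.33e-12). Its means were 0.58 ± 0.08 with BF, 0.51 ± 0.04 with NP, 0.49 ± 0.00 with IND, 0.47 ± 0.02 with 3MC and 0.40 ± 0.03 with BaP, each with all 3 arrays above 0 but under the fold threshold. BF lay at 1.49-fold and passed with several alternatives. Among these were median centring, at 0.70, plain background subtraction, at 0.66, and the authors' values, at 0.62. NP passed with plain background subtraction, at 0.62, and in the authors' values, at 0.63. IND passed with plain background subtraction, at 0.60. DBA at 0.15 ± 0.04 and BA at 0.07 ± 0.02 were nearer to 0. The DBA signals were 90, 99 and 80 units in Cy5 against 67, 77 and 58 in DMSO. They lie near the added constant of 50, which draws the DBA ratio toward 0. CHR, at -0.32, -0.12 and -0.12, was again the 1 compound with every array below 0.

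ID1 (chr20:31605289-31606510), an inhibitor of basic helix-loop-helix factors, rose with PH, at 0.81, 0.79 and 0.74 (mean 0.78 ± 0.04, a 1.72-fold rise, adjusted p = 6.79e-11). Means under the fold threshold were 0.52 with 3MC, 0.42 with NP, 0.42 with DBA, 0.35 with BF, 0.33 with IND, 0.31 with BA (0.41 without array 1), 0.07 with BaP and -0.17 with CHR. This bright probe depended on the scaling more than any other member. With median centring in place of loess it also passed as higher with BF at 1.22, DBA at 1.13, 3MC at 0.81, BA at 0.75 and IND at 0.69, and its sign with CHR turned to 0.27.

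Of the 8 compounds on the shared platform, all 9 members other than the saturated GDF15 differed by limma's F test, where 86% of all probes did. The adjusted p was lowest for TGFB1, at 3.95e-12, and highest for TGFB2, at 0.01. Compounds were then compared in 8 pairs, adjusted over pairs and probes together. GDF15 is left out of pairs in which it was saturated. Doses are not given, so a difference may also be one of dose.

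BaP and PH differ in ring number, BaP having more fused rings. Between them 3 of 9 members differed, beside 18.7% of probes, 1 of them higher with BaP (9.67% of probes) and 2 lower (9.06%). INHBE had a mean of -0.76 with BaP and 0.58 with PH, a difference of -1.34 ± 0.09 (SE, adjusted p = 3.38e-11), and each compound's arrays lay on opposite sides of 0. INHBB was higher with BaP by 1.24 ± 0.13 and ID1 lower by -0.71 ± 0.08. TGFB1 was higher with BaP by 0.58 ± 0.11 (adjusted p = 0.000148), just under the fold threshold, and passed without BaP array 3 (0.64), PH array 1 (0.60) or PH array 2 (0.61). SMAD7 differed by -0.31 ± 0.06 (adjusted p = 0.000199), under the fold threshold. For BMP4 the difference was 0.12, with a 95% interval of -0.04 to 0.29, and for SMAD6 -0.07, with an interval of -0.30 to 0.17.

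CHR and BA are isomers whose rings are joined at a different place. Between them 2 of 9 members differed, beside 16.7% of probes changed and 8.91% lower: SMAD6 was lower with CHR by -0.94 ± 0.11 (adjusted p = 4.89e-07) and BMP4 by -0.59 ± 0.08 (adjusted p = 1.93e-06). BMP4 lay at the fold threshold and did not pass without BA array 2 (-0.57), BA array 3 (-0.53), CHR array 2 (-0.55) or CHR array 3 (-0.55). Without BA array 1 the differences were -0.78 for SMAD6 and -0.66 for BMP4, and ID1 passed as well, at -0.59. INHBE passed without CHR array 3, at -0.60. TGFB1 differed by 0.16 (interval -0.07 to 0.38).

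BaP and BF are isomers too, and 4 of 9 members differed, beside 33.2% of probes changed and 19.4% higher, all of them higher with BaP. TGFB1 differed by 1.13 ± 0.11, INHBB by 0.80 ± 0.13, SMAD6 by 0.69 ± 0.11, with the dim BF spots, and BMP4 by 0.67 ± 0.08. INHBE, which fell with both, differed by -0.10 (interval -0.28 to 0.08).

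Between BaP and CHR 5 of 9 members differed, beside 18.8% of probes changed and 11.2% higher, again all higher with BaP. INHBB differed by 1.49 ± 0.13 (adjusted p = 5.66e-09), TGFB1 by 1.24 ± 0.11, BMP4 by 1.16 ± 0.08, SMAD6 by 1.03 ± 0.11 and SMAD7 by 0.59 ± 0.06. The SMAD7 difference lay at the fold threshold and did not pass without BaP array 2 (0.57), BaP array 3 (0.58) or CHR array 1 (0.52). INHBE differed by 0.01 (interval -0.17 to 0.19). Between BF and CHR 2 of 9 differed, beside 26.3% of probes changed and 10% higher: SMAD7 was higher with BF by 0.77 ± 0.06 and INHBB by 0.69 ± 0.13. TGFB1 differed there by 0.11 (interval -0.12 to 0.34).

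In the 3 compounds of low signal GDF15 could be compared. Between DBA and 3MC none of 10 members passed, beside 2.58% of probes. GDF15 differed by 0.57 ± 0.35, with an interval of -0.16 to 1.30 (adjusted p = 0.213), and TGFB1 by 0.09, with an interval of -0.14 to 0.32. SMAD7 had an adjusted p under 0.05 in that pair, at -0.31, but lay under the fold threshold, and its DBA signals were dim. Against NP, 1 of 10 members passed with 3MC, beside 6.98% of probes changed and 2.63% lower, and 1 of 10 with DBA, beside 10.6% changed and 3.42% lower. In both it was TGFB1, lower with 3MC by -1.51 ± 0.11 (adjusted p = 2.74e-10) and with DBA by -1.42 ± 0.11 (adjusted p = 7.02e-10). The TGFB1 ratio with DBA is drawn toward 0 by the added constant of 50, so the size of its difference from NP is uncertain. GDF15 differed by -0.28 (interval -1.01 to 0.45) between 3MC and NP and by 0.30 (interval -0.44 to 1.03) between DBA and NP. INHBA passed between DBA and NP without NP array 2, at 0.59. The GDF15 intervals rest on the spread that BA array 1 adds to the shared fit. Without that array, DBA minus 3MC was 0.57 ± 0.15 with an interval of 0.27 to 0.88 (adjusted p = 0.00263), which excludes 0 but stays under the fold threshold. The intervals were then -0.58 to 0.03 between 3MC and NP and -0.01 to 0.60 between DBA and NP, and neither pair passed.

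Lists of other genes of the pathway were counted in the same fits, to be read against the shares of all probes that rose, given above, and fell. The shares that fell were 11.7% with NP, 7.74% with PH, 2.58% with BA, 11.6% with CHR, 7.28% with 3MC, 10.2% with BaP, 12.5% with IND, 19.5% with BF and 5.49% with DBA. Among 12 known TGF-beta targets, 6 rose and none fell with PH, 5 rose and 1 fell with BaP, and 4 rose and 1 fell with NP. With CHR 4 rose and 2 fell, with BF 4 rose and 3 fell, and with IND 4 of 11 rose and 1 fell. With BA and with 3MC 2 rose, and with DBA 1 rose and 2 fell. The list's median log2 ratio was 0.51 with PH and -0.42 with BF, and between 0.18 and 0.32 with the other compounds. CDKN2B, a cell cycle inhibitor, rose with 7 compounds and reached a log2 ratio of 2.40 with BF. BHLHE40, a transcriptional repressor, rose with 6 and reached 2.25 with BaP, and JUNB, a subunit of AP-1, rose with 5.

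The BMP targets other than ID1 split by compound. Of 7 genes 4 rose with PH and 4 with BF, and 3 of 5 with IND, with none lower in these. With BaP 2 rose and 2 fell, with CHR and NP 2 fell, with 3MC 1 fell, and none passed with BA or DBA. HAMP, which encodes hepcidin, rose by 2.92 ± 0.05 with PH and fell by 2.42 ± 0.05 with BaP on the log2 scale. ID2 rose by 1.94 ± 0.05 with BF and fell by 1.39 ± 0.05 with NP, and ID3 rose by 1.53 ± 0.07 with PH.

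The other ligands, receptors and receptor SMADs passed in both directions. Of 15 other ligands at most 2 rose with any compound, and 4 fell with BF, 3 with CHR, 2 of 9 with IND and 1 with BaP. INHBC, which encodes the activin C subunit, fell with 4 compounds, to -2.66 with BF. Of 15 receptors 5 fell with BF and at most 2 fell with any other compound. TGFBR1, the type I receptor of TGF-beta, fell with BF to -2.74, where Cy5 was above background on 1 array only, and also with IND, PH and BaP. BMP6, a main inducer of hepcidin in liver, rose with PH, by 1.98 ± 0.07, and with NP. Of 6 receptor and common SMADs, 4 passed with BF, 3 with BaP and 3 with CHR, none with PH, BA or IND, and 1 with each of the others. SMAD1 fell with 4 compounds and rose with BF, and SMAD3 rose with 3.

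Extracellular antagonists and intracellular repressors moved both ways. Of 12 antagonists and latent binding proteins, 3 rose and 4 fell with BF, and 2 rose and 2 fell of 11 with IND. FST, the activin-binding follistatin, rose by 2.32 ± 0.04 with IND and also passed with BF and BA, and FSTL3, its relative, rose by 2.38 ± 0.09 with BaP. LTBP3, a carrier of latent TGF-beta, fell with CHR, BF and IND. Of 6 intracellular repressors, SMURF2, a ubiquitin ligase that works with SMAD7, rose with 5 compounds, and its relative SMURF1 rose with 5 and fell with NP and 3MC.

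**Figure D4:**
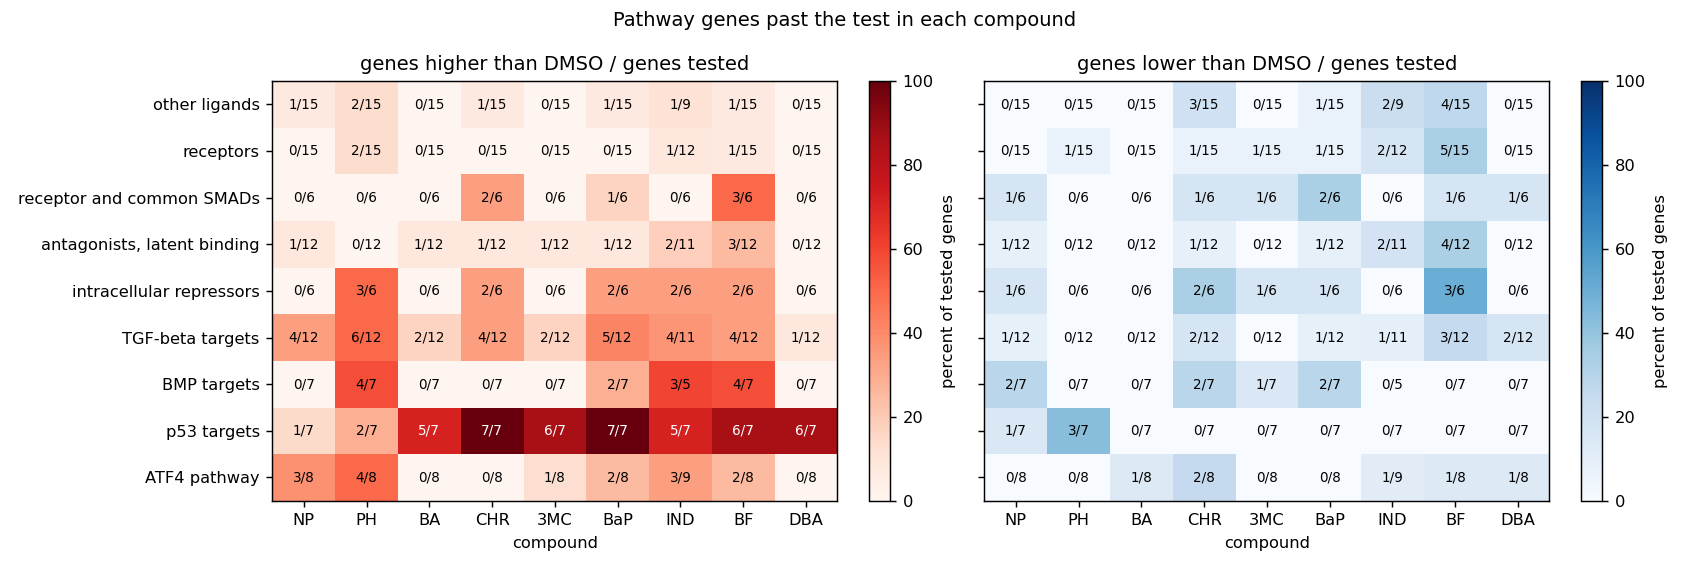
Rows are lists of pathway genes and columns are compounds. Each cell gives the genes that passed the test as higher (left) or lower (right) over the genes tested, and its shade is that share in percent. p53 targets fill the left panel with all compounds except NP and PH, with 7 of 7 for CHR and BaP, while the ATF4 list has its highest counts with PH (4 of 8), NP (3 of 8) and IND (3 of 9).

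GDF15 can be induced by p53 and by ATF4, so 2 lists of such genes were set beside it. All 7 p53 targets rose with CHR and with BaP, 6 of 7 with 3MC, BF and DBA, and 5 of 7 with BA and IND. With NP 1 rose and 1 fell, and with PH 2 rose and 3 fell. GDF15 was higher with all 9 compounds. The list's median log2 ratio was 0.10 with NP and -0.12 with PH, against 2.96 with CHR and 2.35 with BaP. TP53I3, a p53 target, had -0.02 with NP and 0.41 with PH, against 4.06 with CHR and 2.14 with DBA. CDKN1A, the p53-induced inhibitor of the cell cycle, rose with 8 compounds, PH among them at 1.54 ± 0.22 (SE), and had 0.31 ± 0.22 with NP. FAS, a death receptor, fell with NP and PH and rose with the other 7 compounds. PLK3, a stress kinase on the same list, rose with all 9, with 1.32 for NP and 2.81 for PH.

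Of the ATF4 list, 4 of 8 genes rose with PH and 3 of 8 with NP, with none lower in either, and 3 of 9 rose and 1 fell with IND. With BaP 2 of 8 rose, with BF 2 rose and 1 fell, and with 3MC 1 rose. With CHR 2 fell, with BA and DBA 1 fell, and none rose. TRIB3, a pseudokinase induced by ATF4, rose with PH at 0.82, NP at 0.73 and BF at 0.72, and fell with CHR at -0.82 and DBA at -0.72. DDIT4, an inhibitor of mTOR, rose with NP at 1.14 and fell with BF at -2.21, CHR at -1.53, IND at -0.95 and BA at -0.82. The list medians were 0.52 with NP and 0.52 with PH, and between -0.23 and 0.35 with the other compounds. The part of either pathway in the rise of GDF15 was not tested.

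The genes most like INHBE were sought over the 8 compound means of the shared platform, among 3704 genes that passed with at least 3 compounds. These correlations describe 8 points of the same arrays. No such ranking is given for GDF15, whose means are bounds in 5 of the 8 compounds. For INHBE the 5 most similar genes were GNG7 (r = 0.98), EFHC2 (0.97), NR1D2 (0.97), SYN3 (0.97) and GPC6 (0.96). GNG7 ran between -1.09 and 1.34 over the compounds, and INHBE between -0.77 and 0.58.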

How the data were processed

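RNA of 27 two-colour arrays was measured. The scanner output, as deposited by the authors, holds foreground and background intensity per spot and dye and the percent of saturated pixels, not normalized per the file headers. Log2 ratios that the authors deposited have a normalization and build not given in the sources used here. Of these, 20 columns were tied to arrays and used as an alternative, and 7 could not be tied and were not used.

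Pixel means were corrected with normexp (offset 50, limma 3.58.1, R 4.3.3), each array was normalized by loess, and repeated spots were averaged. Tested probes had a signal over background plus 2 SDs in either dye, for some compound, on at least 2 of its 3 arrays: 40949 on the shared platform and 29964 on that of IND. limma (lmFit, eBayes, 2-sided) was fitted at the probe level with 1 mean per compound, 24 arrays together and IND alone. The number of arrays limits the precision. A saturated spot gives a lower bound, computed from the normalized ratio. The lists' genes were matched by current or older symbol and stood by their brightest probe; up to 4 per list, those passing with the most compounds, are named, except for 1 gene that is not reported here. Lists and promoters were handled with Python 3.11.15 and pandas 2.3.3, and figures with Matplotlib 3.10.9. The fit was tested on simulated log ratios.

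The members, the lists and the tests were chosen with earlier results of these data known. Alternatives were other background corrections, scalings, filters, thresholds, weights, separate fits, a replicate block, the authors' values and leaving out each array. Pixel medians and fits within each file layout were added after seeing the data. The array numbers showed no pairing: deviations of same-numbered arrays correlated at a mean of 0.00488 over 84 pairs, and 3 pairs exceeded 0.1.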

Additional observations from a re-analysis of the deposited data

Results flagged for a closer look

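Called differences in which every array of one compound lay above 0 and every array of the other below 0 were found for 3 members. On the log2 scale, INHBE differed by -1.34 between BaP and PH, lower with BaP and higher with PH than DMSO. BMP4 differed by 1.16 between BaP and CHR and by -0.59 between CHR and BA, with the CHR arrays below 0 in both. SMAD7 differed by 0.77 between BF and CHR and by 0.59 between BaP and CHR, again with CHR below 0. Each difference was tested by limma's contrast. For INHBE with PH, BMP4 and SMAD7 with CHR, BMP4 with BA, and SMAD7 with BaP and BF, the ratio to DMSO itself did not reach 1.5-fold. The BMP4 difference between CHR and BA and the SMAD7 difference between BaP and CHR lay at the fold threshold, and each fell under it without certain single arrays, as given above.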

How the results depend on the processing

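No ratio of a member to DMSO that passed the test changed sign under any alternative run. Of those that had not passed, 8 changed sign with median centring, and ID1 with CHR (-0.17 with loess, 0.27 with median centring) was the 1 whose size was over 0.1 beforehand. Among the members' ratios, 1668 alternative values kept their side of the threshold, 81 passed only under the alternative and 23 no longer passed. Some alternatives, such as scaling intensities between arrays, averaging the probes of a gene and the replicate block, leave the members' ratios as they were. The count of values that kept their side is therefore no measure of stability. With plain background subtraction 7 members passed with NP (10256 of 40949 probes), 5 with IND (7584 of 29964), 3 between DBA and NP and 1 between DBA and 3MC. With an offset of 16, 4 passed with NP (8344 of 40949 probes) and 3 between DBA and NP. Counts of all probes are given beside the ratios to DMSO only. With median centring 8 passed with BF (15318 of 40949 probes), 5 with IND (7097 of 29964) and 4 with DBA (3880 of 40949). It also gave 2 between DBA and NP and 1 between DBA and 3MC. That scaling also moved the share of higher probes among all calls to 14.9% with NP (28.8% with loess), 65.8% with BaP (51.9%) and 70.2% with DBA (28.2%). With spots marked not found left out, 5 members of 9 differed among the compounds. That count takes any member for which the F test gave no p-value as not differing. Array weights gave 4 between CHR and BA. The authors' values gave 6 with NP (8424 of 40798 probes) and 1 with BA (1230 of 40798). They also gave 2 between DBA and 3MC and 2 between DBA and NP. Among the compounds 5 differed, with any missing p-value again counted as not differing. A 2-fold threshold left 1 member with 3MC (1104 of 40949 probes), BA (291) and DBA (805). It left 2 with BF (7060) and PH (1792) and 3 with BaP (3372). Between compounds 1 was left for BaP and BF, and 0 for BF and CHR and for CHR and BA. Without a fold threshold 6 passed with 3MC (16771 of 40949 probes), 7 with BA (18231), 9 with BF (27141) and 8 with CHR (25371). Likewise 6 passed with DBA (12365), 7 with IND (21402 of 29964) and 8 with NP (20747). Between compounds 2 passed for 3MC and NP, 5 for BF and CHR and 5 for BaP and PH. A further 5 passed for CHR and BA, 1 for DBA and 3MC and 6 for DBA and NP. Fitted alone, BA gave 0, as it did over all 40949 probes. The causes of these shifts were not tested.

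With each array left out in turn, counts ran from 1 to 2 with BA, 1 to 3 between CHR and BA, 1 to 2 between DBA and NP, 2 to 3 with 3MC, 4 to 6 with BF, 3 to 4 with IND, 4 to 5 between BaP and CHR and 3 to 4 between BaP and PH. They stayed at 2 with NP, 6 with PH, 3 with CHR, 5 with BaP, 2 with DBA, 4 between BaP and BF, 2 between BF and CHR, 0 between DBA and 3MC, 1 between 3MC and NP and 9 among the compounds. Of all probes, 9.33% passed with BA without array 1, 3.21% without array 2 and 2.98% without array 3. Shares of all probes were not set beside the other counts, which are therefore no result about the members.

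With the array number as a replicate block the counts with each compound were as without it, for example 6 with PH, 5 with BaP and 4 with BF, and no call of a member changed. Every blocked compound has all 3 array numbers, so the block leaves the members' means as they were and could alter only the spread. IND, with 3 arrays of its own, could not be blocked.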
